A study of Mus musculus with 6 samples.

Results

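The genes described here encode the constitutive proteasome of mouse melanoma cells, its assembly factors and its activators. They were chosen by name, as every row of the deposited expression table whose symbol runs from Psma to Psmg followed by a number, with the immunoproteasome genes left out. This gave 43 genes of the 19213 in the table. They fall into 8 roles, namely 7 subunits of the alpha ring and 7 of the beta ring of the 20S core, 6 ATPases, 3 other base subunits and 8 lid subunits of the 19S cap, 3 chaperones that assemble the cap, 4 that assemble the core, and 5 activators and inhibitors of the core. Psma8 and Psmb11, which serve testis and thymus, were not analysed here.

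The knockout cells were melanoma cells in which Spp1, the gene of the secreted glycoprotein osteopontin, had been knocked out with CRISPR-Cas9 (3 libraries), and the controls were melanoma cells that carried a non-targeting control (3 libraries). All libraries were polyA-selected, paired-end and labelled as 1 batch, and no guide, clone, passage or treatment beyond the editing is given in the labels. The cell line label differs in each sample, running up to B16F15 in knockout 3 and down to B16F10 in control 1, so a difference between cell stocks and the knockout cannot be told apart if these labels are literal. Nothing in the labels says that the knockout samples are independently edited lines, so p-values here refer to library spread alone, which may be technical.

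The proteasome is the cell's main machine for degrading proteins tagged with ubiquitin. Its barrel-shaped core carries the peptidase sites on its inner beta rings, with alpha rings that gate the entry, and the cap binds ubiquitin, removes it, unfolds the substrate with a ring of ATPases and feeds it into the core. Because the subunits are built into 1 complex in fixed proportions, their genes are known to be transcribed in a coordinated way, mainly through the transcription factor Nfe2l1. In cells of the immune system, and in other cells after interferon, a few beta subunits and the PA28 activator are replaced or added for antigen processing.

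The knockout label was matched by the targeted gene. Spp1 had 2.09, 1.98 and 3.90 scaled reads in the knockout libraries, against 149.3, 156.5 and 144.8 in the control libraries, a log2 change of -5.41 ± 0.25 (SE, adjusted p = 8.98e-11 in limma). Scaled reads are the authors' read counts divided by 1 size factor per library. Each library held 72717465 to 94314770 reads in listed genes, mitochondrial genes took 2.75% to 3.04% of them, and libraries of 1 group correlated at 0.996 to 0.997 across genes. All 7 melanocyte markers looked for (Mitf, Sox10, Pmel, Mlana, Tyr, Tyrp1 and Dct) were listed, with summed levels of 1059660 to 1070430 scaled reads in knockout and 898571 to 914819 in control libraries. Singly, Tyrp1, Dct, Pmel and Mlana were higher in knockout, while Tyr was lower (log2 change -0.55, adjusted p = 1.41e-09 in limma). Mitf (0.01) and Sox10 (-0.05) did not pass the test. Of the markers of other cells, 5 of 6 macrophage markers were listed and summed to 92.1 to 94.96 scaled reads in knockout and 280.7 to 292.4 in control libraries, and 2 of 4 fibroblast markers summed to 159.1 to 183.1 in knockout and 665.3 to 760.0 in control libraries. The macrophage markers differed among themselves. Lyz2, Cd68 and Cd14 averaged 36.6, 47.7 and 5.30 scaled reads in knockout and 163.3, 106.6 and 14.4 in control libraries. Csf1r (2.96 in knockout, 2.30 in control) and Fcgr3 (1.33 and 1.22) were barely read and not lower in knockout. No T cell marker of 4 was listed, the 1 endothelial marker listed of 3 lay at 6.83 to 8.37 in knockout and 8.05 to 8.36 in control libraries, and the 1 keratinocyte marker listed of 2 at 25.7 to 30.3 in knockout and 24.0 to 30.1 in control libraries. Of the fibroblast markers, Col1a1 averaged 36.8 scaled reads in knockout and 489.7 in control libraries, and Pdgfra 135.6 and 222.9. In a bulk sample, fewer cells of a type and less RNA per cell cannot be told apart. Which cells the reads of these markers came from was not tested. The part of the macrophage and fibroblast marker differences in the proteasome values was not tested.

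As a whole, proteasome transcripts differed little between knockout and control cells, and 11 of the 19 falls that passed the test lay in the 20S core. Of the 43 genes, 7 were higher and 19 were lower in knockout and 17 did not pass the test (limma on log2 of scaled reads plus 1, Benjamini-Hochberg adjusted p under 0.05 over all 15307 tested genes). Over the whole transcriptome 34.4% of tested genes were higher and 28.6% lower in knockout, or 63.0% in either direction, so a call alone is common in these libraries. Among the 7740 genes at least as abundant as the least abundant proteasome gene, 49.8% were higher and 26.7% lower. The median log2 change of the 43 genes was -0.063, beside 0.025 over all tested genes and 0.090 over the equally abundant ones. All 43 genes passed the filter of 10 scaled reads in 3 libraries.

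The sizes were narrow. A log2 change of 0.5 or more in size with a call, which 20.8% of all tested genes had, was met by the same 4 genes named next. In 38 of the 43 genes (88.4%) the change was within 1.2-fold, against 52.7% of all tested genes and 61.9% of the equally abundant ones. Tested against a change of 1.2-fold, 4 proteasome genes passed, Psmg1 being higher and Psma5, Psmb4 and Psmd4 lower in knockout, where 24.5% of all tested genes passed (10.3% higher and 14.2% lower). The libraries of the groups did not overlap in 30 genes, 9 with all knockout libraries above and 21 with all below the controls, beside 36.3% above and 30.8% below in the whole table. Replicates were close, with a median coefficient of variation per gene of 2.08% in knockout and 2.37% in control libraries and the widest at 4.60% (Psmd9) in knockout and 9.03% (Psmb4) in control libraries. The number of genes lower in knockout depended on 1 library, falling to 11 without knockout 1 and lying between 14 and 24 under every other scaling, model or left-out library except the test against 1.2-fold.

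**Figure D1:**
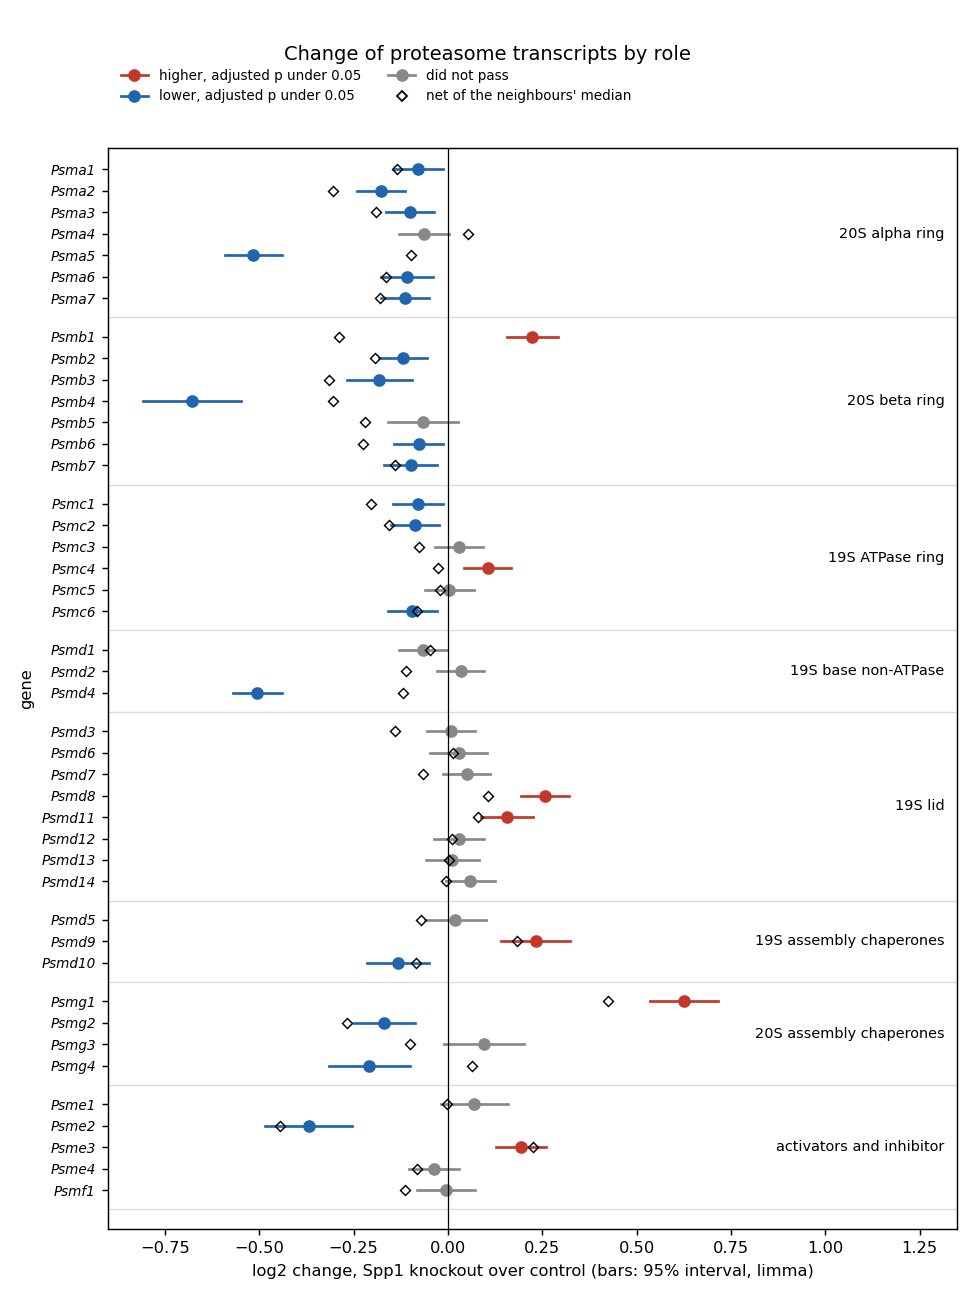
Log2 change of each proteasome gene, knockout over control, on the horizontal axis, with its 95% interval (limma, 3 libraries a group) and genes grouped by role down the page. Red and blue points passed the adjusted threshold (higher and lower), grey points did not, and open diamonds give the change net of the neighbours' median. The filled points of the alpha ring all lie below 0, while the interval and the open diamond of Psma4 reach above it. Psmg1 at 0.63 and Psmb4 at -0.68 stand farthest out.

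In the alpha ring, whose 7 subunits form the gated entry to the core, all log2 changes were negative by the main test. Of its subunits 6 were lower and 1, Psma4, did not pass the test, with a median log2 change of -0.11, where 28.6% of all tested genes were lower. In all 7 every knockout library lay below every control library, as in 30.8% of all tested genes. The gap could be slight, the nearest libraries of the groups being 1.003-fold apart in Psma4 and 1.026-fold in Psma1. Psma5, on chromosome 3, had 9191, 9338 and 9909 scaled reads in the knockout libraries, against 13718, 13807 and 13153 in the control libraries. The groups were far apart, with a log2 change of -0.52 ± 0.035 (SE, adjusted p = 5.88e-09 in limma). Of the 50-base words of Psma5, 49.96% also occur in other loci, mainly predicted genes, and those listed (Gm8394 and Gm12989) averaged 52.0 and 127.6 scaled reads in knockout and 71.5 and 180.7 in control libraries.

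The other alpha subunits fell by far less. Psma2 had 14334, 14400 and 14568 scaled reads in the knockout libraries and 16403, 16591 and 15983 in the control libraries, a log2 change of -0.18. Psma7 had 21780, 22857 and 22456 scaled reads in the knockout libraries and 24078, 24498 and 24026 in the control libraries, a log2 change of -0.11. In both genes the groups were separate, and Psma1 (-0.08), Psma3 (-0.10) and Psma6 (-0.11) moved by the same order. Net of their neighbours Psma2 was at -0.30 and Psma7 at -0.18. Psma4, at -0.06 with a 95% interval of -0.13 to 0.0035, passed when libraries were scaled to equal totals and in edgeR. Net of its neighbours Psma4 changed by 0.05 (adjusted p = 0.203 in limma). Psma1 lost its call without knockout 1, without knockout 3, without control 2 and under the plain variance model, and Psma3 and Psma6 lost theirs without knockout 1.

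The beta ring holds the peptidase subunits Psmb5 (chymotrypsin-like), Psmb6 (caspase-like) and Psmb7 (trypsin-like) beside structural ones. In it 5 subunits were lower, Psmb1 was higher and Psmb5 did not pass the test, with a median log2 change of -0.10, where 28.6% of all tested genes were lower. Psmb4, a structural subunit on chromosome 3, had 11449, 11882 and 12291 scaled reads in the knockout libraries, against 20230, 19840 and 17075 in the control libraries. Control 3 was the lowest of its group, and still 1.39-fold above the highest knockout library. The log2 change was -0.68 ± 0.058 (SE, adjusted p = 2.00e-06 in limma), the largest fall among the 43 genes.

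Psmb1, also structural, was the exception in the core. It had 15590, 16216 and 16129 scaled reads in the knockout libraries and 13767, 13995 and 13312 in the control libraries, a log2 change of 0.22 ± 0.032 (SE, adjusted p = 1.70e-05 in limma). All knockout libraries lay above all controls, but the genes around it on chromosome 17 were higher still, with a median of 0.51, and net of these neighbours Psmb1 was lower in knockout by -0.29 (adjusted p = 1.46e-06 in limma). The peptidase subunits moved little by the main test, Psmb6 at -0.08 and Psmb7 at -0.10 passing it and Psmb5 at -0.07 (95% interval -0.16 to 0.025) not. Net of their neighbours they were lower by more, at -0.22 for Psmb5, -0.23 for Psmb6 and -0.14 for Psmb7 (adjusted p = 1.47e-04, 9.47e-06 and 0.00193 in limma). For Psmb5, 54.1% of the sequence words also occur in other loci, so its value is uncertain. Psmb2 (-0.12) and Psmb3 (-0.18) were lower. Psmb6 and Psmb7 lost their calls without knockout 1 and under the plain variance model, among other settings.

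**Figure D2:**
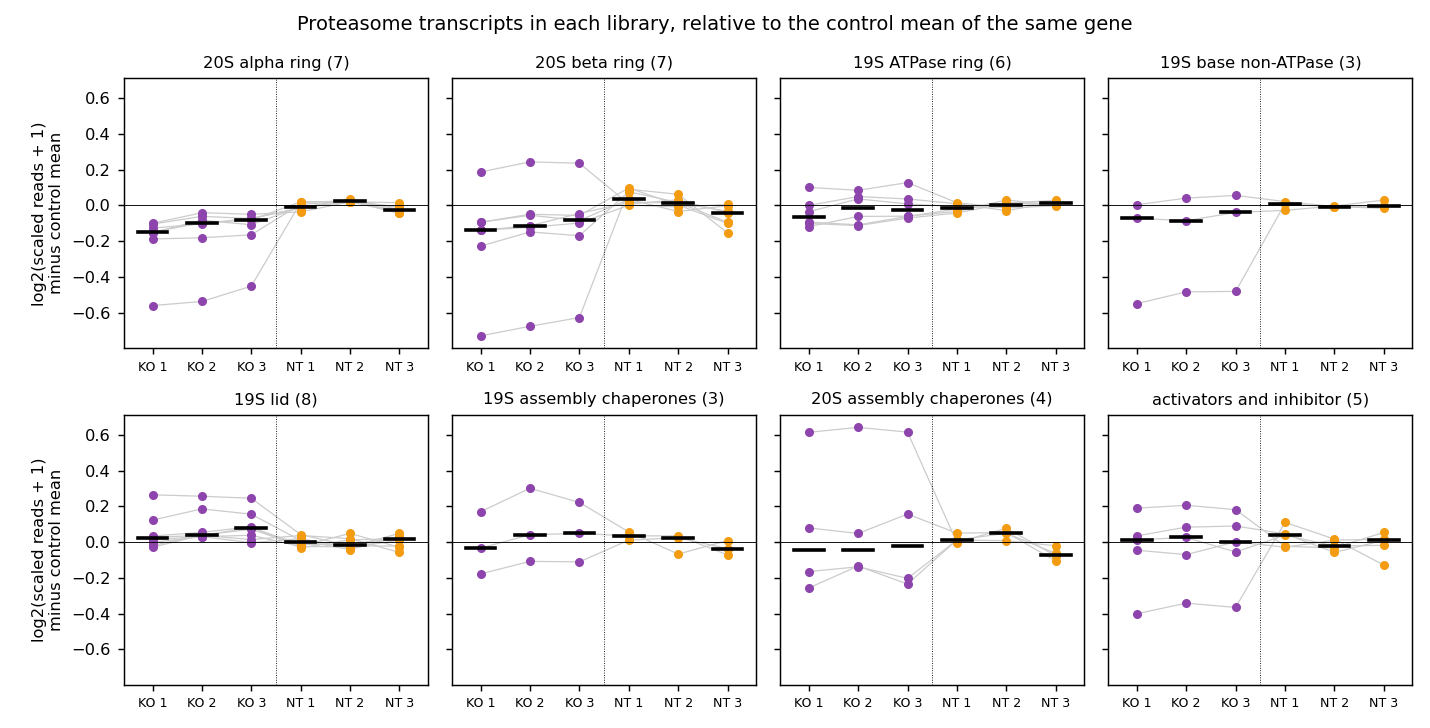
Log2 of scaled reads plus 1 of each proteasome gene in each of the 6 libraries, minus that gene's mean over the 3 control libraries (NT), with knockout libraries (KO) at the left of each panel and 1 panel per role. Grey lines join the values of 1 gene and black bars are the medians over genes, and in the 20S core nearly all lie lower in the knockout libraries, with Psmb1 as the exception.

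In the cap the picture was mixed. The ATPase ring, which unfolds substrates, had 1 subunit higher, 3 lower and 2 that did not pass the test, all within 1.2-fold, and a median log2 change of -0.04. Psmc4 had 20671, 20436 and 21061 scaled reads in the knockout libraries and 19477, 19092 and 19238 in the control libraries, a log2 change of 0.10 ± 0.029 (SE, adjusted p = 0.00519 in limma). Its libraries did not overlap, but the call was lost with equal totals and in edgeR, and net of its neighbours the change was -0.03. Psmc6 had 19441, 19282 and 19849 scaled reads in the knockout libraries and 20243, 21041 and 21261 in the control libraries, a log2 change of -0.09 ± 0.031 (SE, adjusted p = 0.0141 in limma). That call was lost without knockout 1, without knockout 2, without control 2 and under the plain variance model. Psmc1 and Psmc2 fell by 0.08 and by 0.09 on the log2 scale and likewise lost their calls without knockout 1, without knockout 2 and without control 2. Psmc5, the most abundant cap transcript per length, changed by 0.0036 with a 95% interval of -0.061 to 0.068.

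Of the 3 other base subunits, Psmd1 and Psmd2, the large scaffold subunits, did not pass the test (-0.07 and 0.03). Psmd4, also called Rpn10, which binds ubiquitin chains, was lower in knockout. It had 11344, 11875 and 11896 scaled reads in the knockout libraries, against 16727, 16504 and 16592 in the control libraries. The libraries within each group were tight and the groups far apart, at a log2 change of -0.50 ± 0.031 (SE, adjusted p = 1.70e-09 in limma).

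The lid, which carries the deubiquitinase Psmd14, had no subunit lower in knockout by the main test. Its 8 subunits had positive log2 changes of 0.0091 to 0.26, and 2 passed the test, where 34.4% of all tested genes and 49.8% of the equally abundant ones were higher. Positive changes were common at this abundance, with only 36.9% of the equally abundant genes below 0. The signs of 5 lid subunits turned when libraries were scaled to equal totals and of 4 in edgeR, and net of its neighbours Psmd3 was lower (-0.14, adjusted p = 0.00119 in limma). Psmd8 had 32089, 31915 and 31660 scaled reads in the knockout libraries and 27501, 26303 and 26305 in the control libraries, a log2 change of 0.26 ± 0.03 (SE, adjusted p = 2.00e-06 in limma). Psmd11, whose level is known to be raised in pluripotent human cells, had 14772, 15428 and 15113 scaled reads in the knockout libraries and 13645, 13174 and 13860 in the control libraries, a log2 change of 0.16. Both passed the test under equal totals and by edgeR, and relative to their neighbours the changes were smaller, at 0.11 for Psmd8 (adjusted p = 0.0155 in limma) and 0.08 for Psmd11 (adjusted p = 0.0458 in limma). Psmd14 had a log2 change of 0.06 and did not pass the test.

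The assembly factors were among the less abundant of these transcripts and moved in both directions. Among the 3 chaperones of the cap, Psmd9 (p27) had 3752, 4109 and 3889 scaled reads in the knockout libraries and 3468, 3183 and 3354 in the control libraries, a log2 change of 0.23 ± 0.043 (SE, adjusted p = 2.34e-04 in limma). The groups did not overlap, but 25.5% of its exon length is shared with Gm26745, so part of these reads may not be its own. Psmd10 (gankyrin) had 2705, 2840 and 2834 scaled reads in the knockout libraries and 3084, 3113 and 2983 in the control libraries, a log2 change of -0.13 ± 0.038 (SE, adjusted p = 0.00737 in limma), and net of its neighbours on the X chromosome it no longer passed (-0.08, adjusted p = 0.0992 in limma). Psmd5 did not pass the test (0.02).

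The 4 chaperones of the core work as pairs, Psmg1 with Psmg2 and Psmg3 with Psmg4, both on the growing alpha ring, and in neither pair were both genes called in the same direction. Psmg1 had 3778, 3851 and 3781 scaled reads in the knockout libraries, against 2462, 2603 and 2339 in the control libraries. The lowest knockout library was 1.45-fold above the highest control, and the log2 change of 0.63 ± 0.042 (SE, adjusted p = 4.86e-09 in limma) was the largest rise among the 43 genes. The 37 neighbours of Psmg1 on chromosome 16 had a median of 0.21, and net of them Psmg1 changed by 0.42 (adjusted p = 4.53e-08 in limma). Its partner Psmg2 had 2658, 2707 and 2588 scaled reads in the knockout libraries and 3003, 2997 and 2938 in the control libraries, a log2 change of -0.17, or -0.27 net of its neighbours. Psmg4 had 1304, 1421 and 1324 scaled reads in the knockout libraries and 1572, 1614 and 1492 in the control libraries, a log2 change of -0.21 ± 0.050 (SE, adjusted p = 0.00186 in limma). Its neighbours on chromosome 13 had a median of -0.24, and net of them Psmg4 changed by 0.06 (adjusted p = 0.277 in limma). Psmg3 did not pass the test (0.10).

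The Psmg1 promoter is shown because this gene rose most and its window holds an ETS-type core. The 250 bases before the start annotated in RefSeq (GRCm38.p6, chr16:95990961-95991210, minus strand) read 5′ to 3′ as follows, with the core CCGGAAG, which begins 69 bases before the start, in capitals.
Psmg1: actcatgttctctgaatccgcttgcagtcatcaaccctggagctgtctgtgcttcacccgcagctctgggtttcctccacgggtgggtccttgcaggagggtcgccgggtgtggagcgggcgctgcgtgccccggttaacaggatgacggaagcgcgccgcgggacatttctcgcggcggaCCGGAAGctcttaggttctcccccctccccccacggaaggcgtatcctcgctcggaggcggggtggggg

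The PA28 activators split. Psme1 and Psme2, the alpha and beta subunits of the interferon-inducible PA28 ring that opens the core, are usually expressed as a pair and lie close together on chromosome 14. Psme2 had 1736, 1809 and 1779 scaled reads in the knockout libraries, against 2476, 2320 and 2098 in the control libraries, a log2 change of -0.37 ± 0.054 (SE, adjusted p = 2.22e-05 in limma). Psme1 had 2294, 2373 and 2383 scaled reads in the knockout libraries and 2312, 2151 and 2255 in the control libraries, a log2 change of 0.07 that did not pass the test (adjusted p = 0.159 in limma). The ratio of Psme2 to Psme1 was 0.757, 0.762 and 0.747 in the knockout libraries and 1.07, 1.08 and 0.930 in the control libraries, so all knockout libraries lay below all controls. An exact two-sided permutation test gave p = 0.1, the smallest that 3 against 3 libraries can give. Of the sequence words of Psme2, 28.3% also occur in Psme2b and Gm7928, and Psme2b averaged 30.1 scaled reads in knockout and 33.0 in control libraries.

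Psme3, the nuclear activator PA28 gamma, had 22140, 22392 and 22014 scaled reads in the knockout libraries and 19090, 18984 and 20148 in the control libraries, a log2 change of 0.19 ± 0.032 (SE, adjusted p = 6.53e-05 in limma). It was 1 of the higher genes under all alternatives other than the test against 1.2-fold. Psme4 (PA200) and Psmf1 (the inhibitor PI31) changed by -0.04 and -0.005 and did not pass the test. Net of their neighbours both were lower, at -0.08 and -0.11 (adjusted p = 0.0395 and 0.0122 in limma). Psme4 also passed with equal totals (-0.09, adjusted p = 0.0229 in limma).

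Psma5, Psmb4 and Psmd4, the proteasome genes with the largest falls, lie on chromosome 3. Psmb4 (94884093 to 94886961) and Psmd4 (95032694 to 95042614) are near neighbours, and Psma5 (108256926 to 108279974) lies farther along, on GRCm38 with GENCODE M21. Between the first and last of these positions 187 other genes were tested, of which 119 (63.6%) were lower and 8 higher in knockout, with a median log2 change of -0.34, and the 841 tested genes of chromosome 3 had a median of -0.24. The 25 tested genes on each side had medians of -0.44 at Psma5, -0.35 at Psmb4 and -0.36 at Psmd4. Net of these neighbours the changes were -0.10 for Psma5 (adjusted p = 0.0260 in limma), -0.31 for Psmb4 (adjusted p = 0.00864 in limma) and -0.12 for Psmd4 (adjusted p = 0.00733 in limma). Thus all 3 fell by more than the median of their neighbours, and for Psma5 and Psmd4 most of the fall was shared with the genes around them. Such net calls were common, with 230 lower and 230 higher among the 841 tested genes of chromosome 3. The net p-values refer to library spread and not to the spread among the neighbours. What sets the level of the stretch was not tested.

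The promoters of these 3 genes are shown because the genes fell most, yet only Psmd4 holds any of the motifs looked for, which were CCAAT, ETS, interferon-response and antioxidant-response cores. The windows are the 250 bases before each RefSeq start on GRCm38.p6, at chr3:108256676-108256925, plus strand for Psma5, chr3:94886959-94887208, minus strand for Psmb4, and chr3:95042615-95042864, minus strand for Psmd4. Capitals mark the motifs in Psmd4, where an ETS core begins 125 bases, a CCAAT box on the other strand 95 bases and an interferon-response core 80 bases before the start, and the windows of Psma5 and Psmb4 hold none.
Psma5: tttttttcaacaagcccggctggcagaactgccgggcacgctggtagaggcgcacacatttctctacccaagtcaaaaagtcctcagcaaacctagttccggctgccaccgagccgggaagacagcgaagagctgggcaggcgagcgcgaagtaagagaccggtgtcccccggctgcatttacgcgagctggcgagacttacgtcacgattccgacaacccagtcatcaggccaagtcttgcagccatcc
Psmb4: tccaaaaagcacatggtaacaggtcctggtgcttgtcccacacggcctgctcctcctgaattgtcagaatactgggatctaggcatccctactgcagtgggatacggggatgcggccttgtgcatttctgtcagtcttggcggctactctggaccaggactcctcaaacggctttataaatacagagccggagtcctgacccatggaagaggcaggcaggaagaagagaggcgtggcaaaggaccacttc
Psmd4: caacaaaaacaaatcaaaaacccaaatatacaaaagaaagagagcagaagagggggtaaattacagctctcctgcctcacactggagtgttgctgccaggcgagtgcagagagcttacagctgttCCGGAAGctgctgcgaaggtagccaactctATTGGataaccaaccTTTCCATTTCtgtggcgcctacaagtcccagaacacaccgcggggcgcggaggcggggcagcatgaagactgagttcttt

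**Figure D3:**
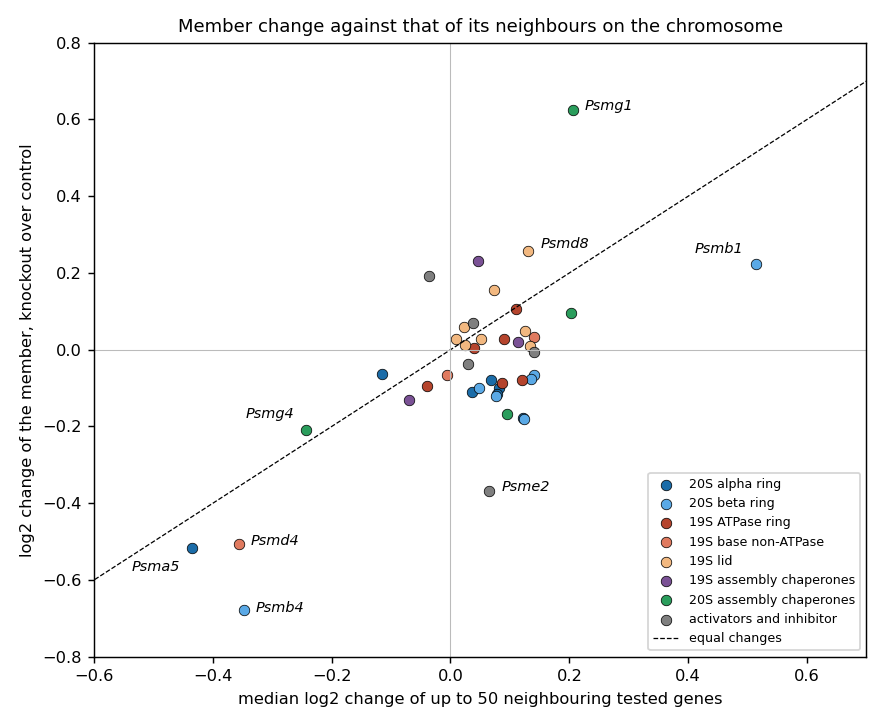
Log2 change of each proteasome gene (vertical axis, knockout over control) against the median log2 change of up to 50 neighbouring tested genes, at most 25 on each side (horizontal axis). On the dashed line a gene changed as much as its neighbours, and Psma5, Psmb4 and Psmd4 sit at the lower left, Psmb1 at the right below the line and Psmg1 above it.

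The core was also read without its chromosome 3 genes. Over all 14 core subunits 11 were lower and 1 was higher in knockout, with a median log2 change of -0.10, and over the 12 on other chromosomes 9 were lower and 1 was higher, again with a median of -0.10. Without knockout 1 the count lower in the core was 6 of 14, and 4 of the 12 on other chromosomes. Net of the neighbours 13 of the 14 were lower in knockout, Psma4 (0.05) being the other one, where over the 43 genes 5 were higher and 24 lower by that measure, beside 29.2% higher and 28.2% lower of all genes. Over the 17 cap subunits 3 were higher and 4 lower, with a median of 0.03, and without knockout 1, knockout 2 or control 2 only 1 was lower. Net of the neighbours the cap had 2 higher and 7 lower subunits and a median of -0.05, so by that measure both parts lay below 0, the core with a median of -0.19. With equal totals the medians were -0.15 for the core and -0.02 for the cap.

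Because scaling between libraries cancels within a library, the balance of core to cap was also read as a ratio. The mean level per kilobase of exon of the 14 core subunits, divided by that of the 17 cap subunits, was 0.969, 0.978 and 0.980 in the knockout libraries and 1.13, 1.12 and 1.07 in the control libraries. It averaged 0.976 ± 0.0061 in knockout and 1.11 ± 0.033 in control (SD, n = 3 each), and the groups did not overlap (exact two-sided permutation p = 0.1, the smallest possible). Without the chromosome 3 genes the ratio was 0.957 ± 0.0054 in knockout and 1.04 ± 0.024 in control, and again the groups did not overlap (exact permutation p = 0.1). The core averaged 6891 ± 137 scaled reads per kilobase in knockout and 7766 ± 199 in control, while the cap averaged 7062 ± 95.8 in knockout and 7017 ± 29.8 in control (exact permutation p = 0.5). Both averages include chromosome 3 genes and, unlike the ratio, were not read without them. In the core, Psma5 averaged 7176 per kilobase in knockout and 10264 in control, and Psmb4 6086 and 9763. In the cap, Psmd4 averaged 4168 and 5914. Together the 43 genes took 0.795%, 0.811% and 0.824% of all scaled reads in the knockout libraries and 0.866%, 0.868% and 0.848% in the control libraries. These shares include the chromosome 3 genes and were not read without them. The 43 genes summed to 637689 ± 9200 scaled reads in knockout and 655140 ± 3960 in control libraries (SD). Within these sums Psma5 averaged 9479.3 in knockout and 13559.2 in control libraries, Psmb4 11874 and 19048.5, and Psmd4 11705.1 and 16607.5.

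**Figure D4:**
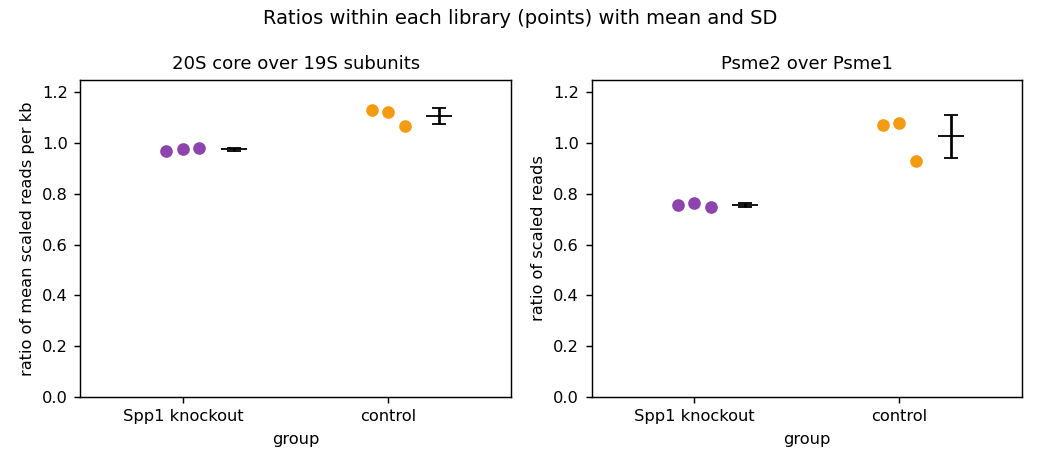
Left, the ratio of the mean scaled reads per kilobase of 20S core subunits to that of 19S subunits in each library, and right, the ratio of Psme2 to Psme1 scaled reads, with points for libraries and bars for the mean and SD of 3. Both ratios are lower in every knockout library than in any control library, at 0.969 to 0.980 against 1.07 to 1.13 on the left.

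Levels per length differed more between subunits than between groups. Among core subunits the level per kilobase ran from 3477 (Psmb1) to 10618 (Psmb6) in knockout and from 2980 (Psmb1) to 11204 (Psmb6) in control libraries. Among cap subunits it ran from 2366 (Psmd11) to 15573 (Psmc5) in knockout and from 2124 (Psmd11) to 15531 (Psmc5) in control libraries. The chaperones lay lower, from 540.4 (Psmd9) to 2830 (Psmg1) in knockout and from 460.1 (Psmd9) to 2810 (Psmg4) in control libraries, and the order of these levels was not tested. These values divide by the length of all annotated exons of a gene, which overstates the length of genes with rarely used exons.

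**Figure D5:**
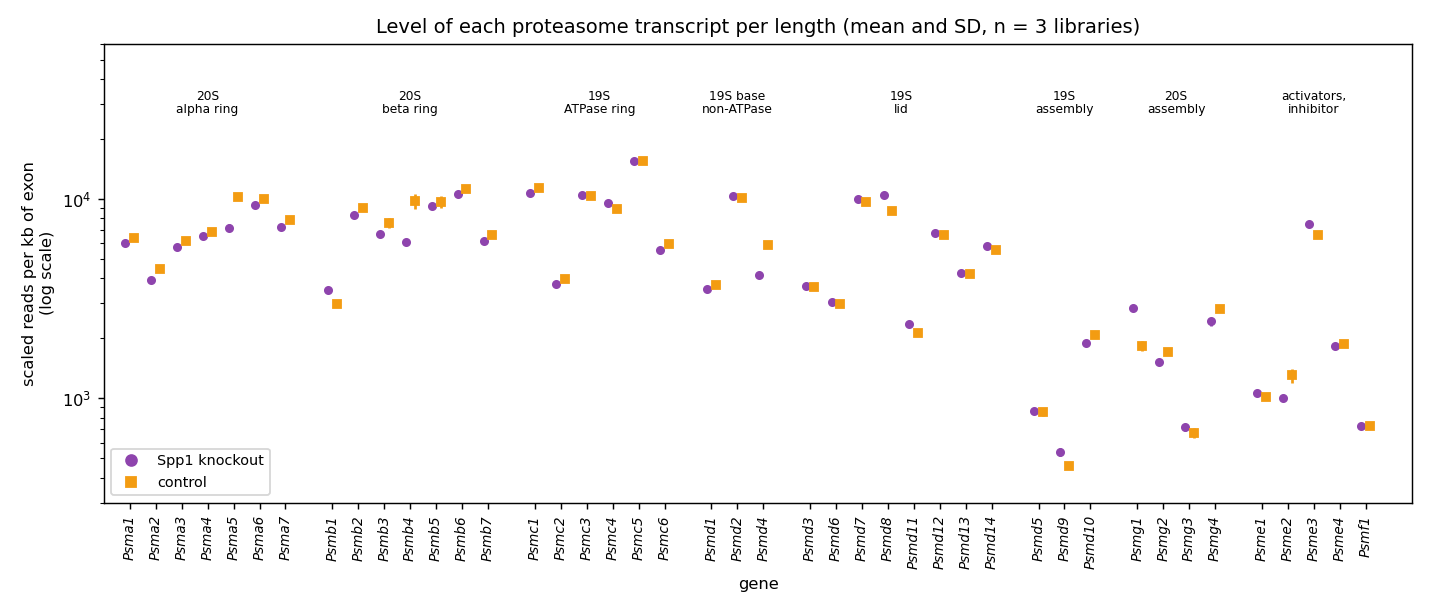
Level of each proteasome transcript in scaled reads per kilobase of exon (log scale), with the mean and SD of 3 libraries for knockout (circles) and control (squares) and genes grouped by role. Core and cap subunits run from 2124 to 15573 and assembly chaperones from 460.1 to 2830, and the groups differ visibly at Psma5, Psmb4, Psmd4, Psmg1 and Psme2.

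Upstream sequence was compared in the 36 genes with a RefSeq promoter, over the 250 bases before the start and on both strands, with motifs chosen after the expression values were seen. The CCAAT box, bound by NF-Y, was found in 12 (33.3%) of them, against 37.5% of all genes, so it was no more common in proteasome genes. Of those 12, 10 were lower and 1 was higher in knockout, with a median log2 change of -0.10, while those without it had a median of 0.0077. Lower calls were made in 28.6% of all tested genes, 6 of the 12 are core subunits already described, and without knockout 1 the count lower was 5. The ETS core CCGGAAG was found in 12 (33.3%), against 7.83% of all genes, and 5 of these were lower and 3 higher, but without knockout 1 only Psmd4 was lower, and without knockout 2 or control 2 there were 2 lower. The antioxidant response core TGACNNNGC, the type of element that Nfe2l1 and Nfe2l2 bind, was found in 5 (13.9%), against 11.5% of all genes. The interferon-response core, TTTC repeated after any 2 bases, was found in 3 (8.33%), against 3.46%. A match is a string of letters and not a bound site.

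Psma2 and Psma7 show the CCAAT box in the alpha ring, at different distances from the start, 54 bases in Psma2 (chr13:14612992-14613241, plus strand) and 196 bases in Psma7 (chr2:180042465-180042714, minus strand). The box is in capitals.
Psma2: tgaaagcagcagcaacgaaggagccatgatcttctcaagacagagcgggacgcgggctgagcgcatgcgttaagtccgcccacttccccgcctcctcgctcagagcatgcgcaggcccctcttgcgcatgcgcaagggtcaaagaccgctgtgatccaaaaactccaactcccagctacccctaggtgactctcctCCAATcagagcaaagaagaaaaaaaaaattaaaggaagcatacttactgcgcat
Psma7: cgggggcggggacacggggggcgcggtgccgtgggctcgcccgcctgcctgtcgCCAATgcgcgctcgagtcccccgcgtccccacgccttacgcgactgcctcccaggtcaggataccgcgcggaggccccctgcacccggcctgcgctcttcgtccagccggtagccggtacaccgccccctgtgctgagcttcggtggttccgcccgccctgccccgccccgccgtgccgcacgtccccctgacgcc

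Genes that work with the proteasome were read by function. Of the immunoproteasome, Psmb9 had 10.5, 11.9 and 7.81 scaled reads in the knockout libraries and 24.0, 16.1 and 17.1 in the control libraries, a log2 change of -0.86 ± 0.29 (SE, adjusted p = 0.0177 in limma) that DESeq2 did not call (adjusted p = 0.117). Psmb10 had 1810, 1706 and 1839 scaled reads in the knockout libraries and 1607, 1519 and 1407 in the control libraries, a log2 change of 0.24 ± 0.053 (SE, adjusted p = 9.20e-04 in limma). Net of its neighbours the change of Psmb10 was 0.13 and no longer passed (adjusted p = 0.0597 in limma). Psmb9 was thus barely read in either group, and Psmb8 was not analysed here.

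Among 17 tested proteins that bind the proteasome or carry substrates to it, 12 were higher and 1 lower in knockout, with a median log2 change of 0.13, where 34.4% of all tested genes and 49.8% of the abundant ones were higher. With equal totals 9 were higher and 2 lower. Net of the neighbours 6 were higher and 1 lower, with a median of 0.06, where 29.2% of all genes were higher. Ubqln2, a shuttle protein mutated in a form of human motor neuron disease, had 1571, 1465 and 1365 scaled reads in the knockout libraries, against 561.9, 589.2 and 609.4 in the control libraries, a log2 change of 1.32 ± 0.061 (SE, adjusted p = 8.29e-11 in limma). Akirin2, which carries proteasomes into the nucleus, had 7956, 8476 and 8210 scaled reads in the knockout libraries and 6059, 6220 and 6604 in the control libraries, a log2 change of 0.38. Both rose with no overlap between groups. Ubqln1, the relative of Ubqln2, had 11956, 12055 and 11418 scaled reads in the knockout libraries and 13747, 13706 and 14639 in the control libraries, a log2 change of -0.25, and net of its neighbours on chromosome 13 it changed by 0.06 (adjusted p = 0.168 in limma).

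Of the 6 genes that supply and activate ubiquitin, 2 were higher and 1 lower in knockout, a share higher near the 34.4% of all tested genes, with a median log2 change of 0.0033. With equal totals 2 were higher and 2 lower (median -0.05), and net of the neighbours 2 were higher and 3 lower (median -0.08). The activating enzymes Uba6 and Uba1 rose, with log2 changes of 0.28 and 0.20 (adjusted p = 5.92e-06 and 5.77e-05 in limma). Net of its neighbours the change of Uba6 was 0.17. The polyubiquitin gene Ubb had 35162, 35844 and 35187 scaled reads in the knockout libraries and 43072, 42268 and 43480 in the control libraries, a log2 change of -0.28 (adjusted p = 4.71e-07 in limma).

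Among 15 genes of proteasome transcription and of the p97 segregase that prepares substrates, 5 were higher and 4 lower, shares near the 34.4% and 28.6% of all tested genes, with a median log2 change of 0.01 that turned to -0.04 with equal totals, and without knockout 1 the count lower was 2. Nfe2l1, the main activator of proteasome genes, had 14899, 14866 and 13857 scaled reads in the knockout libraries and 15987, 15359 and 16493 in the control libraries, a log2 change of -0.13 ± 0.037 (SE, adjusted p = 0.00514 in limma). Its dimer partners Mafg and Mafk had log2 changes of 0.41 and 0.27 (adjusted p = 2.32e-08 and 3.35e-05 in limma). Nfe2l2, which binds the same type of element as Nfe2l1, was higher in knockout, with a log2 change of 0.27 (adjusted p = 4.35e-06 in limma). Net of the neighbours the change was -0.26 for Nfe2l1, 0.27 for Nfe2l2 and 0.15 for Mafk. Faf2, a p97 cofactor at the endoplasmic reticulum, had a log2 change of -0.29 (adjusted p = 2.24e-06 in limma), and net of its neighbours on chromosome 13 of -0.03.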

How the data were processed

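The authors divided reads per gene by DESeq size factors and deposited the result, a signal value called scaled reads here, per the series' design text; the submitters' processing notes name cutadapt 1.6, STAR 2.5.0a, HTSeq 0.5.3 and mm10, without roles. The strand setting of the counting is not given in the sources used here. Values were whole multiples of 1 read in all columns (100% within 0.001), but the recovery was not accepted for knockout 2, which stayed out of edgeR 4.0.16 and DESeq2 1.42.0.

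The main test was limma 3.58.1 (R 4.3.3) on log2(value + 1), trended and robust, two-sided, for genes with at least 10 scaled reads in 3 libraries, with a threshold of 0.05. It was also run on simulated data in which few genes changed, evenly in both directions, with 1 fixed spread. In the real libraries 63.0% of tested genes were called, so that run does not give their rate of false calls. Within a group no 2 libraries were as alike as sampling alone would make them (chi-square over its degrees of freedom, 5.89 to 16.8). For net values, the log2 values of each neighbour were centred on that neighbour's mean over the libraries. In each library the median of these over 25 tested genes on each side was subtracted from the gene's own log2 value. The limma test was then run again. Fewer neighbours were used near a chromosome end (37 neighbours in all for Psmg1 and 44 for Psmd6). A net change therefore need not equal the gene's change minus the median change given for its neighbours. Positions came from GENCODE M21, promoters from RefSeq.

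Members and lists were chosen with earlier results of these data known. Full statistics were given for the largest rise and fall per role, for log2 changes of 0.5 or more, and for up to 2 genes each way per other list. Nfe2l2 was added outside this rule, beside Nfe2l1.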

Additional observations from a re-analysis of the deposited data

How the results depend on the processing

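Small changes turned sign with the scaling or the position. All 43 members kept their calls with pseudocounts of 0.5 and 5, with no filter and with a minimum of 50 scaled reads. The median log2 change of the members was -0.11 with equal totals, -0.092 in edgeR on 5 libraries, -0.099 net of the neighbours and -0.021 without the chromosome 3 members, an alternative chosen after seeing the data. Against 1.2-fold, 1 member was higher and 3 were lower, and over all genes tested there were 1581 higher and 2168 lower. Leaving out 1 library at a time gave 7 members higher each time and 11 to 20 lower, with 11 without knockout 1, a median of -0.070 to -0.045, and 4806 to 5237 genes higher and 3901 to 4169 lower in the whole table.

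Signs turned in 49 values, of which 1, Psmb1 net of its neighbours (-0.29), was past the threshold both ways. With equal totals log2 changes were -0.020 for Psmc3, -0.046 for Psmc5, -0.015 for Psmd2, -0.040 for Psmd3, -0.021 for Psmd6, -0.00016 for Psmd7, -0.021 for Psmd12, -0.037 for Psmd13 and -0.030 for Psmd5. In edgeR they were -0.018 for Psmc3, -0.049 for Psmc5, -0.0061 for Psmd2, -0.038 for Psmd3, -0.014 for Psmd6, -0.0100 for Psmd12, -0.039 for Psmd13 and -0.028 for Psmd5. In DESeq2 they were -0.0058 for Psmc3, -0.037 for Psmc5, -0.026 for Psmd3, -0.0019 for Psmd6, -0.026 for Psmd13 and -0.016 for Psmd5. With TMM they were -0.017 for Psmc5, -0.011 for Psmd3, -0.0085 for Psmd13 and -0.00097 for Psmd5. Net of the neighbours they were 0.054 for Psma4, -0.077 for Psmc3, -0.027 for Psmc4, -0.021 for Psmc5, -0.11 for Psmd2, -0.14 for Psmd3, -0.065 for Psmd7, -0.0049 for Psmd14, -0.073 for Psmd5, -0.10 for Psmg3, 0.064 for Psmg4 and -0.0016 for Psme1. With 1 library left out the ranges were -0.013 to 0.023 for Psmc5, -0.0067 to 0.019 for Psmd3, -0.017 to 0.030 for Psmd13, -0.016 to 0.045 for Psmd5 and -0.021 to 0.020 for Psmf1. The cause of these turns was not tested. Counting depth limited the members little, the lowest value in any library being 1304 scaled reads (Psmg4 in knockout 1).

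The replicate numbers did not pair the libraries, since the deviations of same-numbered libraries correlated at -0.11, -0.24 and -0.04. With the replicate number as a block 7 members were higher and 16 lower, and Psma1, Psmb6 and Psmc1 no longer passed.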
